A study of Homo sapiens with 14 samples.

Results

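The metallothioneins are small proteins in which a large share of the residues is cysteine. They bind zinc and copper in the cytosol and also hold toxic metals such as cadmium. Their genes are switched on by zinc through MTF1, a zinc-sensing transcription factor that binds metal response elements near the gene start, and by glucocorticoids and interleukin-6. The liver is a known site of their production. The 8 metallothionein genes described here, MT2A, MT1X, MT1E, MT1F, MT1G, MT1H, MT1M and MT1A, were found by symbol among the 21574 gene rows of a table of expression levels. They were selected on their measured ratios between ADAR1 knockdown and control in these same data, so that the ratios below are a description and carry no test.

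The study asked how the RNA-editing enzyme ADAR1 shapes RNA structure. All 14 samples carry the label HepG2, a line from a human hepatocellular carcinoma, and received either scrambled siRNA (control) or siADAR1 (KD), an siRNA against ADAR1. The transfection is called stable in labels and methods alike, although the methods also give nucleofection and a silencing time of 48 h. PARS-seq reads RNA folded in vitro after cleavage with S1 nuclease, which cuts unpaired bases, or RNase V1, which cuts paired bases, and it was run in 8 libraries, with 2 replicates for each enzyme and condition. RNA-seq was run in 2 libraries, with 1 for each condition, and Ribo-seq, which sequences the fragments held by ribosomes, in 4 libraries, with 2 for each condition. Poly-A mRNA was the starting material of PARS-seq.

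Levels are in RPKM, a read count divided by the length of the transcript and the depth of its library, and a PARS-seq level averages, by the authors' own calculation, the S1 with the V1 library of each replicate. The table therefore gives 4 PARS-seq, 2 RNA-seq and 4 Ribo-seq values for each gene. The reads behind the RNA-seq and Ribo-seq values could be recovered, because a value times the transcript length is a whole multiple of what a single read is worth. RNA-seq rested on 30209865 and 40729941 reads and Ribo-seq on 995682 to 3322918 reads. ADAR, the targeted gene, was 62.9% and 67.8% lower in KD in the PARS-seq replicates and 72.0% lower in RNA-seq. In Ribo-seq it was 80.0% lower in replicate 1 but only 20.6% lower in replicate 2, and the Ribo-seq values of the metallothioneins are therefore given for each replicate. The labelled cell type was not borne out by its markers. None of the 8 liver genes examined, ALB, AFP, APOA1, APOB, TTR, SERPINA1, HNF4A and TF, reached 1 RPKM in any column, and their highest value was 0.803. The summed level of these 8 genes lay between 0 and 0.558 RPKM in control and between 0 and 0.928 RPKM in KD. Among 8 markers of other cells, the collagen genes COL1A1, at 9.75 to 54.7 RPKM, and COL3A1, at 6.14 to 96.2 RPKM, were well above 1, and the monocyte gene CD14 was just above 1 in 1 column. The summed level of this second list was 30.05 to 116 RPKM in control and 23.0 to 87.2 RPKM in KD. Within assays the collagen genes were mostly lower in KD. COL1A1 was at 19.5 and 29.3 RPKM in control and 16.6 and 19.4 RPKM in KD in PARS-seq, and at 54.7 and 40.4 RPKM in RNA-seq. COL3A1 was at 96.2 and 71.8 RPKM in control and 70.2 and 48.2 RPKM in KD in PARS-seq, and at 13.8 and 6.14 RPKM in RNA-seq, whereas in Ribo-seq it was lower in replicate 1 and higher in replicate 2. In Ribo-seq COL1A1 was at 12.5 and 14.3 RPKM in control and 12.4 and 9.75 RPKM in KD. The limma fit described below called neither gene in PARS-seq (limma adjusted p = 0.242 for COL1A1 and 0.180 for COL3A1). Their mostly lower values thus lay opposite to the metallothionein difference but without a call. Their part in the metallothionein values was not tested. In bulk samples a change in the number of cells of a kind and a change in RNA per cell cannot be told apart. The cells are called by their label below.

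All 8 genes lie within 75.6 kb of chromosome 16, on GRCh37, which is the same build as hg19. MT2A is at chr16:56642496-56643409, MT1E at chr16:56659387-56661024, MT1M at chr16:56666571-56667893, MT1A at chr16:56672578-56673999, MT1F at chr16:56691643-56694610, MT1G at chr16:56700642-56701977, MT1H at chr16:56703726-56705041 and MT1X at chr16:56716382-56718108. MT1G is on the minus strand and the others are on the plus strand. In the GENCODE annotation the principal transcript of each has 3 exons and codes for a protein through 61 codons, of which 20 are cysteine codons. The coding sequences of the 4 genes with appreciable reads are shown because the members differ by few bases, which bears on how reads can be assigned to them. They are spliced, from GRCh37, start with the start codon, leave out the stop codon, and carry the cysteine codons in capitals.
MT2A: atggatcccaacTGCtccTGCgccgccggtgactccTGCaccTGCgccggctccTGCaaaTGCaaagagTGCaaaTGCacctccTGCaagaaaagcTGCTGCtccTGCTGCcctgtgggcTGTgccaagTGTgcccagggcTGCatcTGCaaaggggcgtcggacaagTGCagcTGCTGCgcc
MT1X: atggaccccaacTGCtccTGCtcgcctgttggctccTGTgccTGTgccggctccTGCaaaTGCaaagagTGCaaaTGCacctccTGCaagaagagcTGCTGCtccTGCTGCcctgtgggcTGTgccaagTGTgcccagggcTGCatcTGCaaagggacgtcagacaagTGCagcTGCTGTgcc
MT1E: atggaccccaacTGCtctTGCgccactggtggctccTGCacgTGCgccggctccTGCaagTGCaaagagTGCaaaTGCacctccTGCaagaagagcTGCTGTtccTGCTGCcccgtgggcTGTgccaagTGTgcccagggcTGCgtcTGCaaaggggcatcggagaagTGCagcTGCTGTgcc
MT1F: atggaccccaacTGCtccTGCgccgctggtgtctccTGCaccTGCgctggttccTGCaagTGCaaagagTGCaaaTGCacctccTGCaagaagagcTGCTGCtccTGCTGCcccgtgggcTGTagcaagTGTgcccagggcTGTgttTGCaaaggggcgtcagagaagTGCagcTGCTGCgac

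Over the 183 coding bases, MT2A and MT1X differed at 14 positions, and so did MT2A and MT1E, whereas MT1X and MT1F differed at 21. Among all 8 members the identity ranged from 88.5%, between MT1X and MT1F, to 95.1%, between MT2A and MT1G. The authors kept only uniquely aligned reads, so a read from a shared stretch is lost or, with a mismatch, can be placed on the wrong gene. Of the 30-base windows of the principal MT1X transcript, 54.1% also occur in a transcript of another gene. This share was 32.8% for MT2A, 16.4% for MT1E and 14.6% for MT1F. With windows of 50 bases it was 51.0% for MT1X and 11.1% for MT2A. The summed level of the family is therefore given beside the values of single genes, whose levels and ratios may both be affected.

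The promoters were searched for the core of the metal response element, because metallothionein genes are known MTF1 targets. By RPKM plus 1, 4 of the 8 members were past 1.5-fold higher in both PARS-seq replicates, against 5.88% of 11153 genes. The members were selected on this ratio. The table of promoter sequences (RefSeq, GRCh38.p14) held 3 of the 8 members, MT2A, MT1X and MT1H. MT1E, MT1F, MT1G, MT1M and MT1A were not matched. The core was searched as TGCACNC and TGCGCNC on both strands in the 250 bases before the annotated start. The spans are chr16:56608334-56608583 for MT2A, chr16:56682220-56682469 for MT1X and chr16:56669564-56669813 for MT1H, all on the plus strand, and every match is in capitals.
MT2A: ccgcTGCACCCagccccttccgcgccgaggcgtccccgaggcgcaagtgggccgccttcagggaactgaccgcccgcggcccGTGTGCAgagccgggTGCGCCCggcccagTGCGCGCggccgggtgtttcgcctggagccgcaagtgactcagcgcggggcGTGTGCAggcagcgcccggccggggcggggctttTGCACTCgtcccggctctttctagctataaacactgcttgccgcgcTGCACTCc
MT1X: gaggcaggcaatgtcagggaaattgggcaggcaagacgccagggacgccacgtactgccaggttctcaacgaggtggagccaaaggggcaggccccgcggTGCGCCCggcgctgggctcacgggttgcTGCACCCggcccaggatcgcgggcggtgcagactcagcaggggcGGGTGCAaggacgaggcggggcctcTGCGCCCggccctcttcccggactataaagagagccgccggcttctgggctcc
MT1H: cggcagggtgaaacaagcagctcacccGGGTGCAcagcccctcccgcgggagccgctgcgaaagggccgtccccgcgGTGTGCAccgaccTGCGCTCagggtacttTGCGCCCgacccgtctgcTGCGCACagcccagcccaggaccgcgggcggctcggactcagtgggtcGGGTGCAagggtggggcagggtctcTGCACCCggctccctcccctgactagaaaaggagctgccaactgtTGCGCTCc

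MT2A held 7 matches, 5 forward and 2 reverse. MT1X held 4 matches, 3 forward and 1 reverse, and MT1H held 8, with 5 forward and 3 reverse. Of 35116 promoters searched in the same way, 24.8% had at least 1 match, 0.37% had at least 4 and 0.0313% had at least 7. The G and C content was 73.2% for MT2A, 70.0% for MT1X and 70.4% for MT1H. The promoters searched were not matched for this content, so that its part in these numbers was not tested. MT1H, which had few or no reads in the RNA-seq and Ribo-seq libraries and of whose 30-base windows 43.2% occur in other genes, carried more cores than MT2A and MT1X. A match is a run of letters and not a measured binding site.

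**Figure D1:**
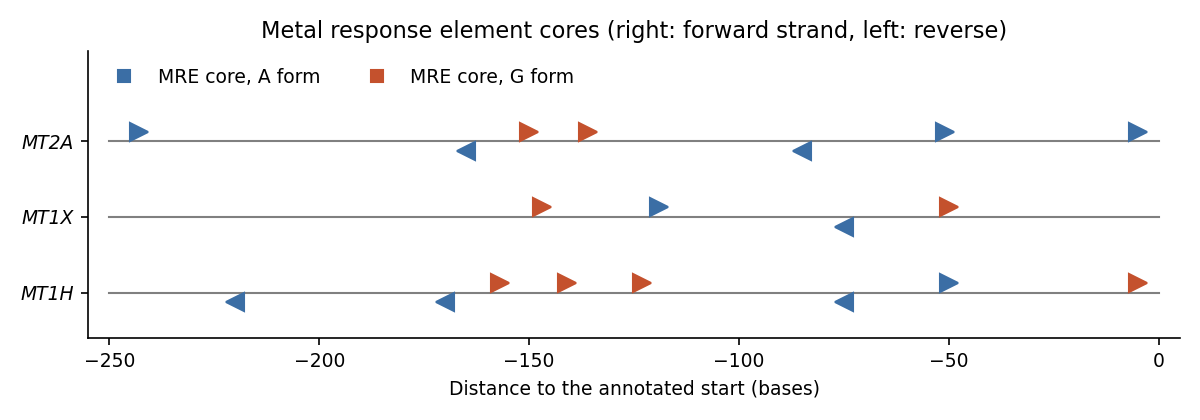
Matches of the metal response element core in the 250 bases before the annotated start of MT2A, MT1X and MT1H. The x axis gives the distance to the start in bases, right-pointing marks are forward and left-pointing marks reverse matches, and colour separates the core TGCACNC from the core TGCGCNC. All 3 promoters have matches within 100 bases of the start, and MT1H has 8 in all.

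MT2A, the most abundant metallothionein in these cells, was higher in KD in each assay. Its PARS-seq level was 190 and 326 RPKM in the control replicates and 563 and 1132 RPKM in the KD replicates. In RNA-seq it went from 112 to 220 RPKM. Both KD replicates of PARS-seq lay above both controls, although the 2 controls themselves differed considerably. In Ribo-seq the controls were at 158 and 129 RPKM and the KD replicates at 336 and 203 RPKM. The KD to control ratio was 2.96 and 3.48 in the PARS-seq replicates, 1.96 in RNA-seq, and 2.13 and 1.58 in the Ribo-seq replicates. The KD and control values again did not overlap in Ribo-seq, but the lowest KD value was only 1.29 times the highest control value, against 1.73 times in PARS-seq. In control RNA-seq 761 of the 21574 rows had a higher value than MT2A, and 316 had in KD. In PARS-seq 379 and 188 rows stood above it in control and 77 and 30 in KD.

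MT1X, an isoform of the metallothionein-1 group, had a low RNA-seq level and a much higher level in Ribo-seq. Its PARS-seq level was 14.1 and 12.9 RPKM in control and 77.0 and 85.3 RPKM in KD. The replicates of each condition lay close together, and the conditions were far apart. RNA-seq gave 3.10 RPKM in control and 8.44 RPKM in KD. The Ribo-seq level was 27.3 and 30.5 RPKM in control and 67.0 and 62.8 RPKM in KD. The ratio was 5.46 and 6.61 in PARS-seq, 2.72 in RNA-seq, and 2.45 and 2.06 in Ribo-seq. MT1X was thus the member with the tightest replicates in both replicated assays. Its lowest KD value was 5.46 times its highest control value in PARS-seq and 2.06 times in Ribo-seq.

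MT1E was the second most abundant member in all columns of values but control replicate 2 of Ribo-seq, where MT1X was above it. In PARS-seq it stood at 51.4 and 44.04 RPKM in control and at 148 and 186 RPKM in KD. RNA-seq gave 26.5 and 46.8 RPKM. The smallest RNA-seq ratio of the 4 expressed members was that of MT1E, at 1.76, whereas its PARS-seq ratios were 2.89 and 4.23. In Ribo-seq the level was 53.6 and 26.2 RPKM in control and 156 and 94.5 RPKM in KD. The Ribo-seq ratios of 2.91 and 3.61 were the highest of the 4 in both replicates, and no KD value overlapped the controls. The share of all genes whose conditions separate in this way is not given here. Missing overlap between 2 and 2 values, for this and the other genes, is therefore only a description.

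MT1F, the least abundant of the 4 in control PARS-seq, had the largest PARS-seq ratio. Its level there was 7.38 and 8.98 RPKM in control and 62.2 and 89.6 RPKM in KD. In RNA-seq it was 3.45 RPKM in control and 17.8 RPKM in KD. The ratios were 8.42 and 9.97 in PARS-seq and 5.15 in RNA-seq. Ribo-seq did not show a difference of this size in replicate 1. There the control level was 6.83 RPKM and the KD level 8.07 RPKM, while replicate 2 went from 5.46 to 18.9 RPKM. These 4 Ribo-seq values rest on 3, 5, 8 and 20 reads, respectively, so that the ratio of 1.18 in replicate 1 has a 95% interval of 0.230 to 7.61 and that of 3.45 in replicate 2 one of 1.46 to 9.07.

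**Figure D2:**
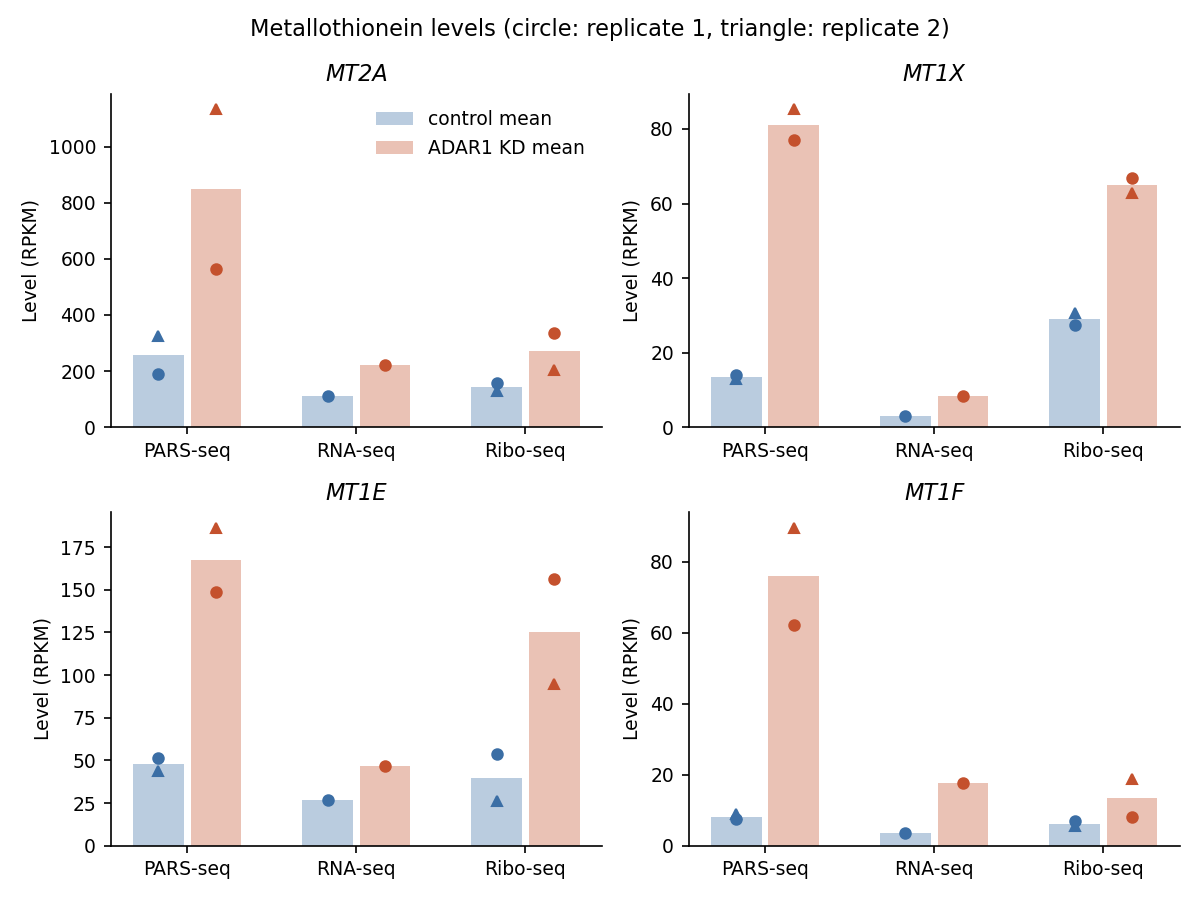
Levels of MT2A, MT1X, MT1E and MT1F in RPKM (y axis, from 0, one scale per gene) in PARS-seq, RNA-seq and Ribo-seq. Bars are the means of control (blue) and ADAR1 KD (red), circles are replicate 1 and triangles replicate 2, and RNA-seq has a single library for each condition. KD lies above control in every assay for each gene, with MT2A reaching 1132 RPKM in a PARS-seq KD replicate.

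The remaining members were barely detected. MT1G was at 0.0504 and 0.0892 RPKM in control PARS-seq and at 0.273 and 0.469 RPKM in KD, and was listed at 0 in both RNA-seq libraries. MT1H was at 0.0399 RPKM in control replicate 2 and 0.0383 RPKM in KD replicate 2 of PARS-seq and at 2.09 RPKM in KD replicate 2 of Ribo-seq, and was listed at 0 elsewhere. MT1M was listed at 0 in all columns but control replicate 2 of Ribo-seq, where it was 0.684 RPKM, and MT1A in all but control replicate 2 of PARS-seq, where it was 0.09997 RPKM. The Ribo-seq values of MT1G, at 3.04 RPKM in control replicate 2, of MT1H and of MT1M correspond to 4, 2 and 1 reads. None of these 4 genes reached a mean of 1 RPKM in any assay, and no ratio is given for them singly. A 0 in this table can also come from the loss of reads shared between members. Other rows with a metallothionein name, MT1B, MT1L, MT1IP, MT1JP, MT1DP, MT3, MT4 and MTL5, were between 0 and 3.96 RPKM. The highest value belongs to MT1B in control replicate 2 of Ribo-seq. MT1DP, a pseudogene, was at 0.0877 and 0.105 RPKM in control PARS-seq and at 0.412 and 0.584 RPKM in KD, but at 0.259 RPKM in control RNA-seq and 0.0582 RPKM in KD.

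Read counts set the precision of the RNA-seq and Ribo-seq ratios. MT2A had 1916 reads in control RNA-seq and 2784 in KD, which gives its ratio of 1.96 an exact conditional binomial 95% interval of 1.85 to 2.08. The interval of MT1E was 1.57 to 1.97, that of MT1X 1.93 to 3.89 and that of MT1F 3.88 to 6.93. In Ribo-seq the intervals were wider, at 1.60 to 2.85 and 1.29 to 1.94 for MT2A in replicates 1 and 2, and at 1.23 to 5.31 and 1.36 to 3.13 for MT1X. For MT1E they were 1.90 to 4.62 and 2.53 to 5.23. These intervals cover counting error only, and with a single RNA-seq library for each condition the difference there has no replicate check.

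The summed level of the 8 members went from 263 to 851 RPKM in PARS-seq replicate 1, while replicate 2 went from 392 to 1494 RPKM, which are 3.24-fold and 3.81-fold differences. In RNA-seq it went from 145 to 293 RPKM, or 2.02-fold. In Ribo-seq the sum was 246 RPKM in control and 568 RPKM in KD of replicate 1, with 194 and 382 RPKM for replicate 2, or 2.31-fold and 1.96-fold. MT2A held 72.3% and 83.1% of the sum in control PARS-seq and 66.2% and 75.8% in KD. Control Ribo-seq gave it 64.3% and 66.1%, and KD gave it 59.3% and 53.3%. In RNA-seq the share was 77.2% in control and 75.1% in KD, so that MT2A held less of the sum in KD than in the same-numbered control in each assay. In PARS-seq MT1F made up 2.81% and 2.29% in control, against 7.31% and 5.995% in KD, and it was 2.37% and 6.07% in RNA-seq. In Ribo-seq its share was 2.78% in control and 1.42% in KD of replicate 1, but 2.81% and 4.94% in replicate 2, so that the replicates went in opposite directions.

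For comparison across genes, ratios were taken on the log2 scale of RPKM plus 1, over genes with a mean of at least 1 RPKM in the assay. The median over the 8 members, of which 4 passed this filter in each assay, was 1.02 in PARS-seq, 0.40 in RNA-seq and 0.84 in Ribo-seq. It depends on the members near 0, since it lies midway between MT1G and MT2A in PARS-seq and between MT1H, with 2 reads in 1 library, and MT2A in Ribo-seq. With a pseudocount of 0.1 the PARS-seq median was 1.57, while the Ribo-seq median was 0.46 with a pseudocount of 5 and 0.11 without replicate 2. The medians over the genes that passed the filter were 0.04 in both PARS-seq replicates, -0.01 in RNA-seq, and -0.02 and 0.16 in the Ribo-seq replicates. In PARS-seq, 4 of the 8 members were past 1.5-fold higher in both replicates, against 5.88% of 11153 genes, and 6.05% were past this fold in the lower direction, with no member among them. In RNA-seq the single ratio was past 1.5-fold higher for 4 of the 8, against 4.47% of 10946 genes, and 4.66% of genes were lower. In Ribo-seq 3 members, MT2A, MT1X and MT1E, were past it in both replicates, against 2.67% of 10882 genes, and 1.81% were lower. Since the members were selected on these ratios, nothing is read from the comparison with all genes. Past 2-fold higher were 4 members in PARS-seq, against 1.06% of genes, 2 in RNA-seq (MT1X and MT1F), against 0.813%, and 2 in Ribo-seq (MT1X and MT1E), against 0.386%.

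**Figure D3:**
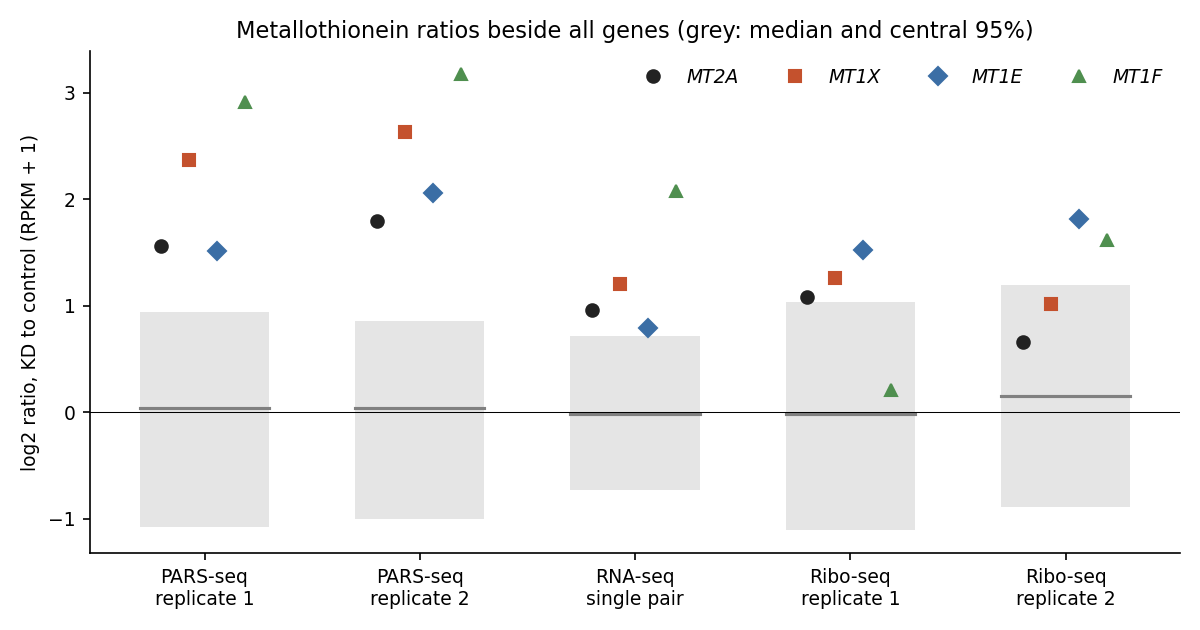
Log2 ratios of KD to control, from RPKM plus 1 (y axis), for the 4 expressed members in each replicate pair of each assay (x axis). Grey lines are medians and grey boxes the central 95% of all genes with a mean of at least 1 RPKM. The members lie above the boxes in PARS-seq and RNA-seq, whereas in Ribo-seq replicate 1 MT1F, at 0.21, and in replicate 2 MT2A, at 0.66, and MT1X, at 1.02, lie inside.

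By mean log2 ratio in PARS-seq, MT1F at 3.05 was the highest of the 11153 genes and MT1X at 2.50 had 1 gene above it, which is MT1F itself. MT1E at 1.78 had 13 genes above it and MT2A at 1.68 had 18. In RNA-seq the numbers of genes above MT1F, MT1X, MT2A and MT1E were 3, 42, 104 and 200 of 10946. In Ribo-seq, MT1E at 1.67 ranked first among the members, with 29 genes above it of 10882, and MT2A at 0.87 had 272 above it. The order of the members thus differed between assays.

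**Figure D4:**
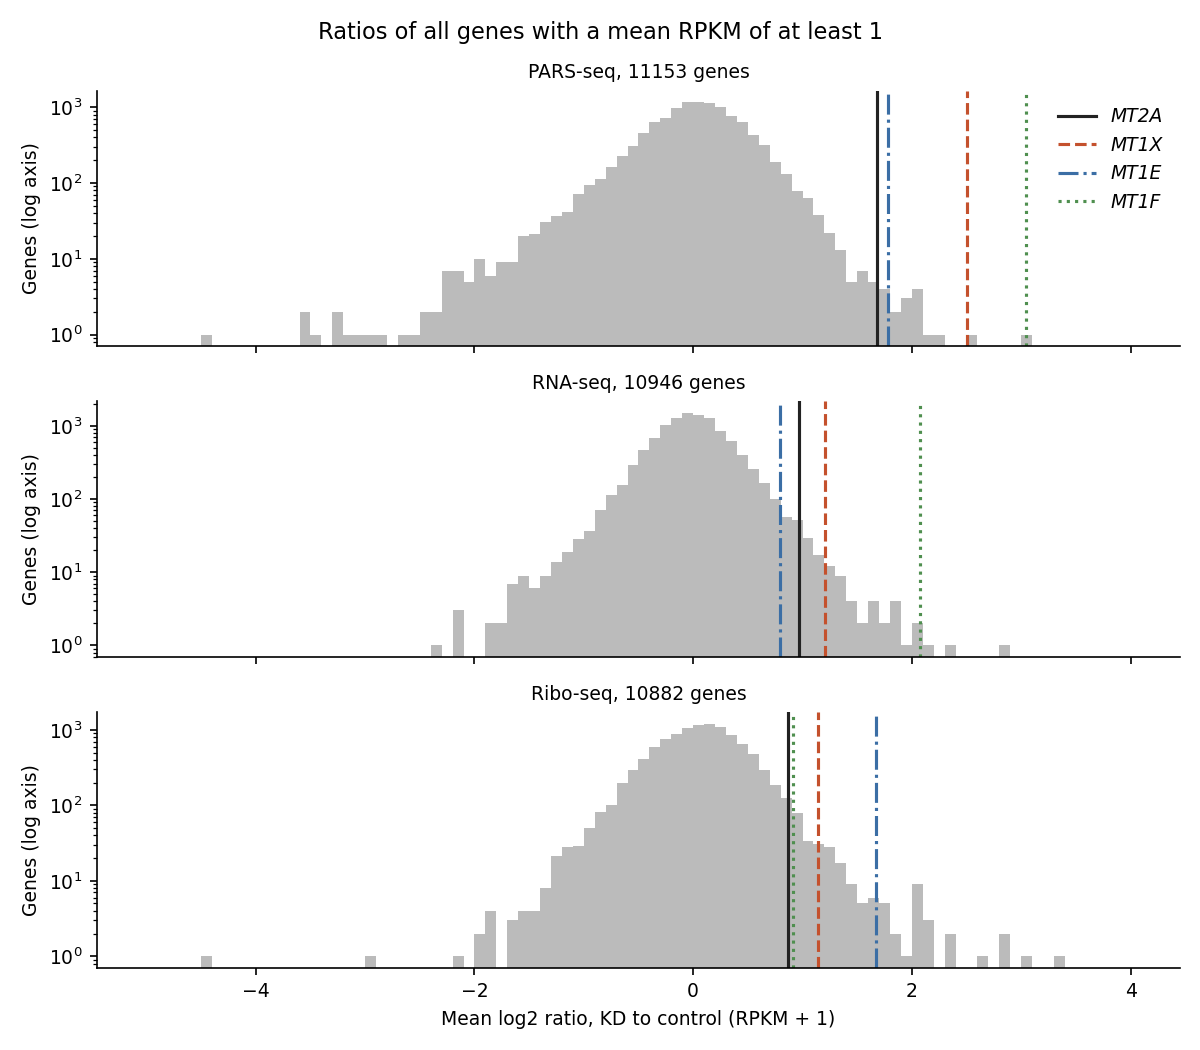
Histograms of the mean log2 ratio of KD to control (x axis, RPKM plus 1) over genes with a mean of at least 1 RPKM, with the number of genes on a log axis, in PARS-seq, RNA-seq and Ribo-seq. Coloured lines mark the 4 expressed members, with MT1F at 3.05 at the right end of the PARS-seq histogram.

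The ratios in PARS-seq exceeded those in RNA-seq for each expressed member. The difference between the PARS-seq and the RNA-seq log2 ratio was 0.60 and 0.83 for MT2A in the 2 replicates, 1.16 and 1.43 for MT1X, 0.72 and 1.26 for MT1E, and 0.84 and 1.10 for MT1F. Its median over the 10158 genes that passed the filter in both assays was 0.04 and 0.07. The differences share the single RNA-seq pair, and the pseudocount lowers the RNA-seq ratios of MT1X and MT1F more than their PARS-seq ratios, since their RNA-seq levels are lower. The ratios without a pseudocount, given for each gene above, were also higher in PARS-seq than in RNA-seq.

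Ribo-seq and RNA-seq were set against each other as the ratio of their RPKM values, a measure of translational efficiency. The highest values were those of MT1X, with ratios of 8.82 and 9.85 in control and 7.94 and 7.44 in KD, where both KD values lay below both controls. The medians over all genes were 0.742 and 0.615 in control, over 9984 genes, and 0.751 and 0.709 in KD, over 10007 genes. In control 80 and 46 of these genes had a higher ratio than MT1X. MT2A was at 1.41 and 1.15 in control and at 1.53 and 0.925 in KD, and the conditions overlapped. MT1E went from 2.02 and 0.986 in control to 3.34 and 2.02 in KD, where the lower KD value exceeded the higher control value only narrowly. MT1F was at 1.98 and 1.58 in control and at 0.454 and 1.06 in KD, so that its KD values also lay below its controls, on the few reads given above. The 4 ratios of a gene share 1 RNA-seq library for each condition, and MT1X has the largest share of windows found in other genes.

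Genes that sense, move or use zinc and copper were taken from lists and tested with limma across all genes, with Benjamini-Hochberg adjustment. These lists and those below were chosen with earlier results of these data known. Their counts and p-values are therefore a description of these samples. In PARS-seq this fit called 8.06% of 11153 genes higher and 7.43% lower in KD at an adjusted p under 0.05. Of 27 zinc and copper genes tested, 0 were called higher and 3 lower. At an unadjusted p under 0.05 there were 10 of the 27, against 3591 of all 11153 genes, a similar share. The median log2 fold change was -0.06 over the 15 zinc genes and -0.08 over the 12 copper genes. In RNA-seq 0 of 16 zinc and 0 of 10 copper genes were past 1.5-fold in either direction by RPKM plus 1. Without the pseudocount the RNA-seq ratio was 0.647 for SLC39A10, 0.652 for SLC39A9 and 1.53 for SLC39A4. The 3 genes called were SLC39A10, a zinc importer of the ZIP family, with a log2 fold change of -0.96 ± 0.22 (SE, limma adjusted p = 0.0261), the copper-exporting ATPase ATP7A, at -1.02 ± 0.15 (limma adjusted p = 0.00471), and the copper-zinc superoxide dismutase SOD1, at -0.76 ± 0.18 (limma adjusted p = 0.0295). This count was 1 without KD replicate 2 and 5 without control replicate 2. SOD1 was not called without KD replicate 1 or without KD replicate 2, and SLC39A10 not without KD replicate 2. With no filter on mean RPKM, none of the 3 was called (limma adjusted p = 0.0623 for ATP7A, 0.0855 for SOD1 and 0.130 for SLC39A10).

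The regulator of the zinc response and a further target of it were examined by name. MTF1 was at 1.87 and 2.24 RPKM in control PARS-seq and at 3.04 and 3.33 RPKM in KD, so that the conditions did not overlap. RNA-seq gave 2.10 and 2.55 RPKM. Its PARS-seq log2 fold change was 0.46 ± 0.14 (SE, limma adjusted p = 0.0593) and missed the threshold in this fit, though not with the replicate block described at the end. With 1 replicate of a condition left out the log2 fold change was 0.37 to 0.54. SLC30A1, a zinc exporter that MTF1 is known to activate along with the metallothioneins, was lower in KD in PARS-seq. Its levels there were 41.6 and 31.5 RPKM in control and 27.2 and 17.6 RPKM in KD, and 29.2 and 23.8 RPKM in control and KD RNA-seq. The log2 fold change of -0.70 ± 0.24 (SE, limma adjusted p = 0.0816) missed the threshold, and among those fits it passed without KD replicate 1 (limma adjusted p = 0.00471) or without control replicate 2 (limma adjusted p = 0.00316). In Ribo-seq SLC30A1 was at 75.2 and 23.0 RPKM in control and at 60.3 and 31.3 RPKM in KD, where the 2 replicates differed far more than the conditions.

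The heavy metal stress list holds genes for glutathione, redox and heat shock proteins, and the genes called were lower in KD. The heat shock gene DNAJB1, at -0.21 (limma adjusted p = 0.568), was not called in PARS-seq. Neither was the redox gene TXNRD1, at -0.01 (limma adjusted p = 0.963), in a row shared with other symbols. The heat shock genes HSPA1A and HSPA1B were listed at 0 in every column and were not tested. Of 7 tested in PARS-seq, 0 were called higher and 4 lower, against 8.06% and 7.43% of all genes, and the median log2 fold change of the 7 was -0.98. GCLM, at -1.81 ± 0.16 (SE, limma adjusted p = 0.000594), and GCLC, at -0.98 ± 0.17 (SE, limma adjusted p = 0.00962), encode the subunits of the enzyme that starts glutathione synthesis. SRXN1, which encodes sulfiredoxin, was at -1.70 ± 0.26 (SE, limma adjusted p = 0.00570), and HMOX1, which encodes heme oxygenase, at -1.12 ± 0.24 (SE, limma adjusted p = 0.0207). With no filter on mean RPKM, GCLM and GCLC were still called, but SRXN1 (limma adjusted p = 0.0774) and HMOX1 (limma adjusted p = 0.120) were not. In RNA-seq 3 of 7 of these genes were past 1.5-fold lower, against 4.66% of all genes, and 0 higher. The 3 were SRXN1, at a log2 ratio of -1.08, GCLM, at -0.61, and SLC7A11, a cystine transporter named here after its value was seen, at -0.76. SLC7A11 was there at only 2.00 RPKM in control and 0.764 RPKM in KD. In PARS-seq it was not called, at -0.53 (limma adjusted p = 0.192), and its Ribo-seq ratios were 0.397 and 1.11. GCLC, at -0.46, and HMOX1, at 19.0 RPKM in control and 16.3 RPKM in KD, were not past this fold. In Ribo-seq the KD to control ratio in replicates 1 and 2 was 0.457 and 0.934 for GCLM, 0.720 and 0.868 for GCLC, and 0.532 and 0.736 for SRXN1, and the median log2 fold change of the 7 genes was -0.31, with 0 called. HMOX1 was there at 17.7 and 14.8 RPKM in control and 17.5 and 24.1 RPKM in KD.

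Glucocorticoid and interleukin-6 genes were examined because both signals are known to raise metallothioneins. Of 6 glucocorticoid response genes tested in PARS-seq, 0 were called by limma in either direction, against 8.06% and 7.43% of all genes, and 1 had an unadjusted p under 0.05. In RNA-seq 1 of 7 was past 1.5-fold lower, against 4.66% of all genes, and 0 higher. This gene, named after its value was seen, was TSC22D3, which encodes the glucocorticoid-induced leucine zipper, at a log2 ratio of -0.63. Of 4 interleukin-6 and acute phase genes tested, 1 was called higher and 1 lower. The higher gene was IL6ST, the signalling subunit of the receptor, at 1.23 ± 0.17 (SE, limma adjusted p = 0.00387), and the lower was IL6R, the ligand-binding subunit, at -0.85 ± 0.14 (SE, limma adjusted p = 0.00654). Neither was called with no filter on mean RPKM (limma adjusted p = 0.0633 for each). In RNA-seq IL6ST was at a log2 ratio of 0.67 and IL6R at -0.78, each past 1.5-fold in the same direction as in PARS-seq. In Ribo-seq limma called 0% of 10882 genes higher and 0% lower, with 43 genes at an unadjusted p under 0.05. None of the 28 zinc and copper genes tested there was called or had an unadjusted p under 0.05. The missing calls do not show that these genes were unchanged.

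**Figure D5:**
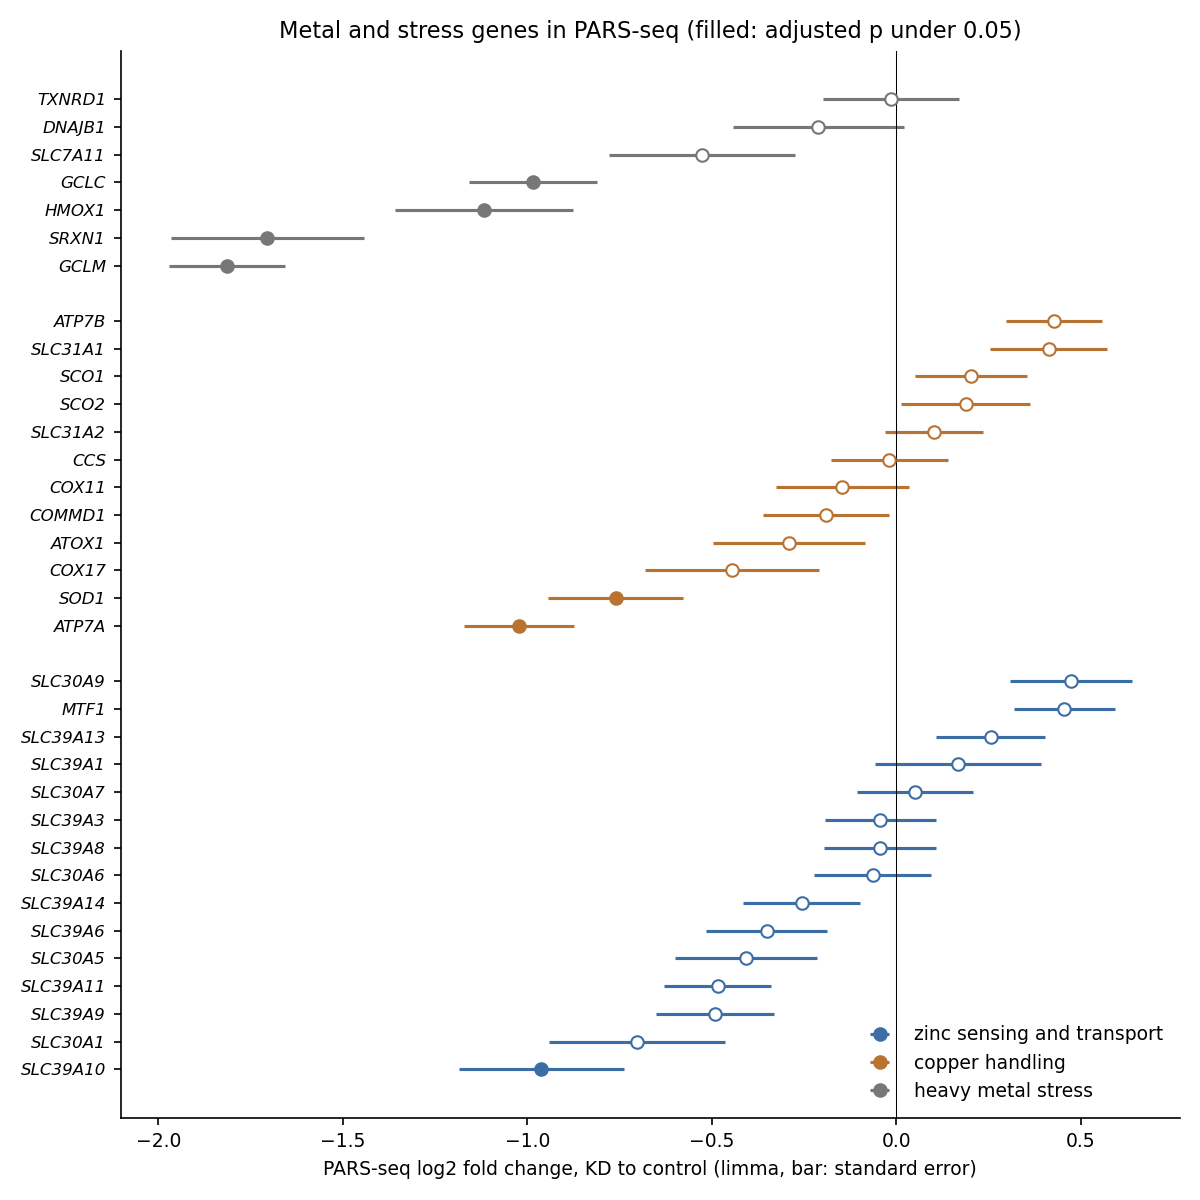
PARS-seq log2 fold changes of KD to control (x axis, limma, bars are standard errors) for the tested zinc (blue), copper (brown) and heavy metal stress (grey) genes. Filled points have an adjusted p under 0.05, and the 7 filled points all lie below 0, from -1.81 for GCLM to -0.76 for SOD1.

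Finally, the genes whose values followed the metallothioneins most closely were sought among 3572 genes with a mean of at least 10 RPKM in each assay. Likeness was the Pearson correlation of log2 values, centred within each assay, with the mean centred profile of the 8 members over the 10 columns. The 5 most alike were GNB1, a G protein subunit (r = 0.980), PGRMC2, a progesterone receptor membrane component (r = 0.978), LSM14A, an RNA-binding protein of P-bodies (r = 0.978), the transcription factor MYC (r = 0.977) and CDCA4 (r = 0.973). LSM14A stood at 10.1 and 11.7 RPKM in control PARS-seq and at 46.0 and 48.6 RPKM in KD, and at 11.2 and 13.6 RPKM in control Ribo-seq and 28.7 and 23.4 RPKM in KD. GNB1 went from 201 and 245 RPKM to 668 and 678 RPKM in PARS-seq. The 10 columns fall into the same 2 conditions and share the libraries of the members, and the correlations are given as a description.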

How the data were processed

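Conditions, assays and replicate numbers of the 14 samples came from the labels. The authors aligned reads to hg19 with Bowtie2 in local mode, after cutadapt according to the submitters' processing notes, kept unique alignments and counted RNA-seq and Ribo-seq reads on RefSeq transcripts with coverageBed. The deposited table holds RPKM values, and its PARS-seq RPKM are the authors' means over S1 and V1. The deposited read-start tables were not used here, because their identifiers could not be tied to these genes. No column of another sample was used.

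The metallothioneins and the gene lists were chosen with earlier results of these data known. Ratios used log2(RPKM + 1), which understates the change of low genes. Lists were tested with limma 3.58.1 (R 4.3.3) with a mean trend over genes with a mean RPKM of at least 1, with Benjamini-Hochberg adjustment and calls at 0.05, in a fit without a replicate block. The fit was tested on simulated data, where it recovered the changed genes at the PARS-seq spread but almost none at the Ribo-seq spread. The study calls its replicates biological, without saying whether cultures or transfections were separate, and p-values measure only the spread between these samples.

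Genes named in the text were all members, other metallothionein-named rows, ADAR, MTF1, SLC30A1, up to 4 called genes for each list by size of change, and the 5 genes most like the members. The markers, SLC7A11, TSC22D3, DNAJB1, TXNRD1, HSPA1A, HSPA1B, SLC39A9 and SLC39A4 were named beyond this rule, all but the markers after their values were seen. Whole reads were recovered from RPKM, transcript length and the smallest step of each library. Of 400 rows drawn, 98.0% gave whole reads in all 6 libraries within 0.001 reads, with a relative tolerance for large counts. A member's length was the smallest of at least 300 bases that did so. Intervals are exact Poisson or conditional binomial. Alternatives covered the pseudocount, the filter, median-of-ratios scaling, a replicate block and leaving out replicates. Leaving out a replicate leaves 1 value in that condition, so that the spread in such a fit comes from the other condition only. Python 3.11.15, numpy 2.4.6, scipy 1.17.1, pandas 2.3.3 and matplotlib 3.10.9 were used.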

Additional observations from a re-analysis of the deposited data

How the results depend on the processing

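All 4 expressed members kept a higher value in KD under each pseudocount and scaling in the 3 assays, and with either replicate left out in PARS-seq and Ribo-seq. The median log2 ratio over the 8 members went from 1.02 to 1.57 in PARS-seq with a pseudocount of 0.1, because genes near 0 then weigh more. In Ribo-seq it was 0.46 with a pseudocount of 5, against 0.84, and ranged from 0.11 to 0.84 with a replicate left out, the low value without replicate 2, because MT1F and the members at 0 set the median. Past 2-fold instead of 1.5-fold, 118 genes were higher and 227 lower in PARS-seq, 89 and 100 in RNA-seq, and 42 and 28 in Ribo-seq. With no filter on mean RPKM, PARS-seq gave 546 calls instead of 1728, 0 zinc and copper genes and 2 heavy metal stress genes, with more genes tested; with a mean of at least 5 it gave 1118 calls. Leaving out a replicate of a condition gave 1171 to 2564 calls in PARS-seq, 1 to 5 zinc and copper genes, and 0 to 24 calls in Ribo-seq, the 24 without KD replicate 2. The alternatives for the stress list and for single genes of the lists were added after seeing the data.

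The replicate numbers are shared labels only, with correlations of same-numbered deviations of 0.66 in PARS-seq and 0.81 in Ribo-seq from 2 pairs. With the replicate block, 5656 genes were called in PARS-seq and 143 in Ribo-seq. In PARS-seq 14 zinc and copper genes were among them, 5 higher and 9 lower in KD. Over all alternatives the limma adjusted p in PARS-seq ranged from 1.59e-05 to 0.294 for MTF1 and from 2.76e-07 to 0.395 for SLC30A1, with the lowest values under the block. Median-of-ratios scaling gave 753 genes higher and 911 lower in PARS-seq, against 899 and 829. Single genes with few reads, MT1F in Ribo-seq above all, are limited by depth.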
